A study of Mus musculus with 21 samples.

Results

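The 10 genes described here carry out the methionine cycle and its nearest one-carbon reactions in mouse liver: Mat1a, Mat2a, Gnmt, Ahcy, Bhmt, Bhmt2, Cbs, Cth, Pemt and Shmt1. They were chosen as a named list of enzymes and matched by gene symbol in each of 3 deposited RNA sequencing tables, where all 10 were found, among 54532 genes in the CCl4 liver table and in the hepatocyte table and 34280 genes in the thioacetamide liver table. All 10 passed the filter on low values in every comparison.

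The series holds 21 libraries in 7 groups of 3, and by its title the study asks whether STING, a DNA-sensing adaptor, acts on hepatocyte death in fibrotic liver through the NLRP3 inflammasome. In the CCl4 table, 3 livers came from mice labelled Sting knockout and 3 from wild-type mice, all given the hepatotoxin carbon tetrachloride (CCl4) by intraperitoneal injection, and 3 came from wild-type mice given oil. In the hepatocyte table, wild-type primary hepatocytes received the NLRP3 inhibitor MCC950 (10 µM) 2 h before stimulation, against cells not given it, and both groups received LPS (1 µg/mL, 6 h) and nigericin (10 µM, 30 min), an ionophore that activates NLRP3. In the thioacetamide (TAA) table, 3 livers came from mice labelled as having Nlrp3 deleted in hepatocytes and 3 from wild-type mice. All 6 had received TAA, another fibrosis-inducing hepatotoxin, for 8 weeks. The sample labels give 6 weeks for oil and CCl4, whereas the design text gives 8 weeks for CCl4. The Sting allele and the Cre driver of the Nlrp3 deletion are not given in the sources used here, and hepatocytes without stimulation, TAA-free livers and Sting knockout livers after oil were not analysed here. Since no label states that the replicates are separate mice or cultures, every p-value reflects the spread among these libraries alone.

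The methionine cycle turns methionine into S-adenosylmethionine, the methyl donor of most methylation reactions, and the liver carries out much of the body's share of it. Mat1a encodes the methionine adenosyltransferase of mature hepatocytes and Mat2a the isoenzyme of most other and of dividing cells. Gnmt and Pemt encode methyltransferases that use up much of the liver's S-adenosylmethionine, Ahcy encodes the hydrolase that turns the product S-adenosylhomocysteine into homocysteine, Bhmt and Bhmt2 encode enzymes that methylate homocysteine again, and Cbs and Cth divert it to cysteine. Shmt1 encodes the cytosolic enzyme that loads folate with a one-carbon unit from serine.

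Promoter sequences were available from RefSeq (build GRCm38.p6, the same build as mm10) for 8 of the 10 genes, in 9 windows. The 250 bases before the start are shown for Gnmt and Ahcy, which were lower in both CCl4 groups than in oil livers, and for Mat2a, which was not. Each reads 5′ to 3′ on the gene's strand (the minus strand for all 3), and capitals mark matches, on either strand, to the TATA box (TATAAA), the CCAAT box (CCAAT), the GC box (GGGCGG), the E-box (CACGTG) or the amino acid response element core (TGATGNAA), with overlapping matches of a motif counted separately.
Gnmt, chr17:46729166-46729415: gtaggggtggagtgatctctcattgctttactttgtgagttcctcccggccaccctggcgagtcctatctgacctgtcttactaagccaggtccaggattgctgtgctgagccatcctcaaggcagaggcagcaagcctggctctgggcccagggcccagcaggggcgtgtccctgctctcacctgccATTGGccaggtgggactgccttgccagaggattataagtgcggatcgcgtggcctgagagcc
Ahcy, chr2:155074498-155074747: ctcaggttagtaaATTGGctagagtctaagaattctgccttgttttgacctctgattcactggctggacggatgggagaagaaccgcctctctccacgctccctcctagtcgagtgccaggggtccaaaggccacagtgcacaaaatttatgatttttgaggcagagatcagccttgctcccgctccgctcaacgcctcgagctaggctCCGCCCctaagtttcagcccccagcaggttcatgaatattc
Mat2a, chr6:72439557-72439806: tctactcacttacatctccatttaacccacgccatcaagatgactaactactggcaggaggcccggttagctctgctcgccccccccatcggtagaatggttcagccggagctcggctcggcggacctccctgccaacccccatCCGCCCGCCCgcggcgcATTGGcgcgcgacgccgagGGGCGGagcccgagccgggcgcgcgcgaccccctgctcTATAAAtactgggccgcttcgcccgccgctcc
The Mat2a window held 29 CpG dinucleotides at 67.6% G and C, with 1 TATA box, 1 CCAAT box and 3 GC box matches. The Gnmt window held 6 CpG at 60.4% and the Ahcy window 9 CpG at 52.8%, against a median of 6 CpG over 32851 RefSeq windows of this length. Of the windows not shown, Cbs held 21 CpG, Bhmt2 20, Shmt1 13, Bhmt 5, and the Pemt windows 1 and 2. A link between CpG and the changes after CCl4 was not tested. Gnmt held 1 CCAAT box match and no other of the motifs searched, and Ahcy held 1 CCAAT box and 1 GC box match. Of all windows, 12.4% held a TATA box match, 33.8% a CCAAT box, 32.7% a GC box, 6.02% an E-box and 3.45% the response element core, so the matches are a description of these windows and no evidence of binding.

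Several properties of the libraries bear on the values that follow. Reads recovered from the CCl4 table came to 14353483 to 16684832 per library and those of hepatocytes to 14883710 to 17157586, and deposited counts in the TAA table to 32096879 to 68913793. The 10 genes had 775 to 82880 recovered reads per CCl4-table library. In the livers labelled Sting knockout, Sting1 (listed as Tmem173) was at 1.98 to 5.28 FPKM, against 4.74 to 6.10 FPKM in wild-type CCl4 livers. Wild-type oil livers had 0.885 to 1.46 FPKM, below every liver labelled Sting knockout. The sample codes of the labelled livers begin with SWT. For these reasons the label is used here without being taken as a verified genotype. The deposited CCl4-table FPKM divide by a library size that is 0.823 to 1.22 times the recovered reads in the livers labelled Sting knockout, 1.09 to 1.17 times in wild-type CCl4 livers and 0.744 to 0.912 times in oil livers, so levels per recovered read differ from the FPKM comparison by the ratio of these factors. Ahcy and Bhmt have near-identical copies elsewhere in the genome with reads of their own in these tables, so their values, and those of the copies, are uncertain.

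Wild-type livers given CCl4 were set against wild-type livers given oil, which shows what the toxin changes, and 3 of the 10 genes fell and none rose. Gnmt, which methylates glycine and so consumes surplus S-adenosylmethionine, fell 4.72-fold on the log2(FPKM + 1) scale, Ahcy, the S-adenosylhomocysteine hydrolase, fell 3.69-fold and Cth, cystathionine gamma-lyase, fell 3.09-fold. The 3 of 10 called lower (limma, adjusted p under 0.05) and 0 called higher stand against 6.15% of 11511 tested genes called lower and 9.19% called higher. In 8 of the 10 genes all WT CCl4 libraries were below all oil libraries in deposited FPKM, as in 21.4% of all tested genes. Per recovered read the groups overlapped for some of these genes. For Pemt, oil replicate 3 had 3534 of 14353483 recovered reads and CCl4 replicate 2 had 4233 of 16357783.

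Gnmt (ENSMUSG00000002769, chromosome 17, 46725664 to 46729168, mm10) was at 767, 337 and 262 FPKM in the 3 CCl4-treated wild-type livers, against 1853, 2353 and 1644 FPKM in the 3 oil livers. All CCl4 values lay below all oil values, and the log2 fold change was −2.24 (SE 0.57, limma adjusted p = 0.0244). Ahcy (ENSMUSG00000027597, chromosome 2, 155059310 to 155074497) was at 399, 164 and 139.8 FPKM after CCl4, against 708, 809.5 and 811 FPKM after oil. The groups again did not overlap, with a log2 fold change of −1.88 (SE 0.47, limma adjusted p = 0.0213). Its copy Gm4737, 99.7% identical over 2083 bases, was at 93.3, 39.9 and 36.6 FPKM in the CCl4 livers, against 169, 197 and 156 FPKM in the oil livers, and was also called lower (log2 fold change −1.73, limma adjusted p = 0.0102). Cth (ENSMUSG00000028179, chromosome 3, 157894248 to 157925077), which releases cysteine from cystathionine, was at 183, 46.9 and 64.8 FPKM after CCl4, against 222, 232 and 327 FPKM after oil. Its 2 lower CCl4 libraries were well apart from replicate 1, which came near the oil range (log2 fold change −1.63, SE 0.48, limma adjusted p = 0.0433). With the replicate number as a block, Cth did not pass (limma adjusted p = 0.0517) and Gnmt and Ahcy did (0.0193 and 0.0230). Over 15 alternative settings Ahcy was called in 9, Gnmt in 8 and Cth in 3.

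The 2 enzymes that make S-adenosylmethionine differed in their pattern across these livers. Mat1a (ENSMUSG00000037798, chromosome 14, 41105035 to 41124412) was at 980.5, 271 and 229.6 FPKM in CCl4-treated wild-type livers, against 845, 738 and 967 FPKM in the oil livers. Replicate 1 of the CCl4 group lay above every oil library and the other CCl4 libraries below them all, so the groups overlapped, and the difference did not pass (log2 fold change −1.10, 95% interval −2.23 to 0.03, limma adjusted p = 0.187). Mat2a (ENSMUSG00000053907, chromosome 6, 72432799 to 72439558) was at 14.5, 17.1 and 20.6 FPKM after CCl4, against 14.6, 14.1 and 16.2 FPKM after oil. These ranges overlapped as well, with a log2 fold change of 0.19 (95% interval −0.30 to 0.68, limma adjusted p = 0.645).

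Both homocysteine methyltransferases had lower means after CCl4, and neither passed the test. Bhmt (ENSMUSG00000074768, chromosome 13, 93616675 to 93637961), which uses betaine as the methyl donor, was at 637, 95.6 and 319.6 FPKM in CCl4-treated wild-type livers, against 946, 928 and 1044 FPKM in the oil livers. The groups did not overlap, but the CCl4 libraries spread 6.67-fold (log2 fold change −1.85, 95% interval −3.27 to −0.42, limma adjusted p = 0.0819). Its copy Gm5096, 99.4% identical over 1869 bases, was at 251, 33.5 and 66.4 FPKM after CCl4, against 373, 390.2 and 334 FPKM after oil, and was called lower (log2 fold change −2.13, limma adjusted p = 0.0344). Bhmt2 (ENSMUSG00000042118, chromosome 13, 93655720 to 93674302), which uses S-methylmethionine, was at 106, 59.3 and 73.8 FPKM after CCl4, against a narrow 126, 127 and 125 FPKM after oil (log2 fold change −0.70, limma adjusted p = 0.276).

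The other 3 genes kept groups apart in deposited FPKM, though not per recovered read, with smaller differences that did not pass. Pemt (ENSMUSG00000000301, chromosome 11, 59970614 to 60046489), which makes phosphatidylcholine by methylation, averaged 105 ± 7.17 FPKM in CCl4-treated wild-type livers and 164 ± 6.94 FPKM in the oil livers (SD, n = 3 each, limma adjusted p = 0.307). Cbs (ENSMUSG00000024039, chromosome 17, 31612623 to 31637199), cystathionine beta-synthase, averaged 106 ± 19.5 FPKM after CCl4 and 164 ± 18.1 FPKM after oil (SD, n = 3 each, limma adjusted p = 0.171). Shmt1 (ENSMUSG00000020534, chromosome 11, 60788104 to 60811718) averaged 32.7 ± 4.12 FPKM after CCl4 and 55.4 ± 7.28 FPKM after oil (SD, n = 3 each, limma adjusted p = 0.144). Their log2 fold changes were −0.63, −0.63 and −0.74. These p-values come from 1 fit of all 3 groups of livers. They therefore also carry the spread of the livers labelled Sting knockout, where Pemt averaged 172 ± 94.7 FPKM (SD, n = 3). Over 15 alternative settings Shmt1 was called in 1, and Pemt and Cbs in 0. Shmt1 shares bases with Smcr8 on the other strand, which reached 5.65 FPKM in this table, and the sources used here do not say whether reads were counted by strand.

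**Figure D1:**
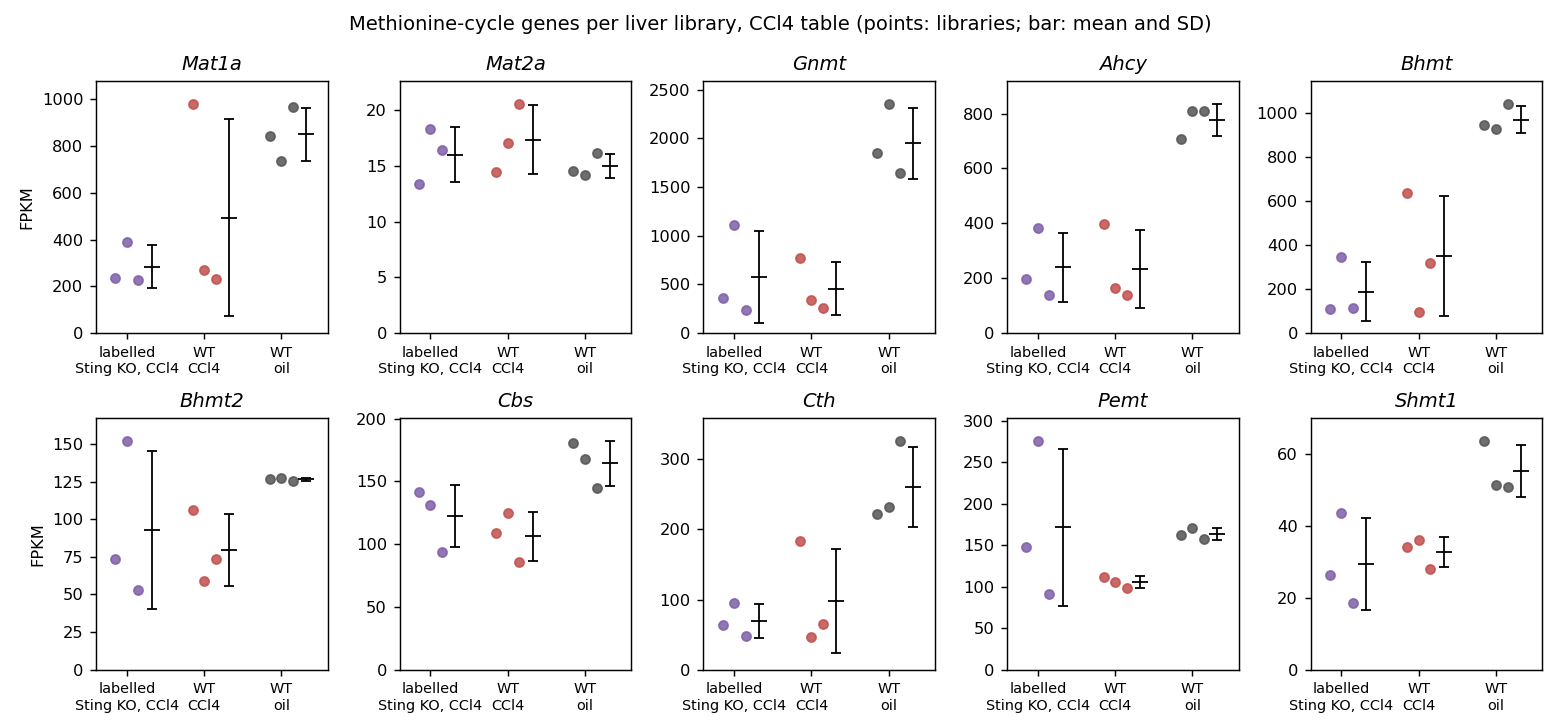
FPKM (linear axes from 0) of the 10 genes in each liver of the CCl4 table, with points for libraries and a bar for the mean and SD of 3. Oil livers lie above all wild-type CCl4 livers for Gnmt, Ahcy, Bhmt, Bhmt2, Cbs, Cth, Pemt and Shmt1, and the 3 groups overlap for Mat2a, at 13.4 to 20.6 FPKM.

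These calls depended on single libraries. Without CCl4 replicate 1, which was the highest CCl4 library for 7 of the 10 genes, 5 were called lower, with Mat1a at a log2 fold change of −1.76 (limma adjusted p = 0.0140) and Bhmt at −2.47 (limma adjusted p = 0.0286). With that library left out, 580 of 11479 tested genes were called lower and 847 higher. Without any 1 of the other 5 libraries, CCl4 replicates 2 and 3 and oil replicates 1 to 3, 0 were called, with limma adjusted p of 0.0643 to 0.0897 for Gnmt and 0.0593 to 0.0756 for Ahcy. Rescaled to the same recovered reads per library, which put the median of all genes at 0.29, against −0.08 as deposited, the median of the 10 genes was −0.46, against −0.92. Gnmt and Ahcy kept their calls there (log2 fold change −1.78 and −1.42, limma adjusted p = 0.0259 and 0.0253), and Cth lost its call (limma adjusted p = 0.0762). On that scale 1638 genes were called higher and 265 lower, against 1058 and 708 as deposited.

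Markers of cell types moved with the same contrast. Of 19 matched and tested hepatocyte markers 3 were called lower in the wild-type CCl4 livers and 0 higher (median log2 fold change −0.57), and their summed level was 54031 to 63847 FPKM after CCl4 and 60715 to 80070.1 FPKM after oil. Pericentral hepatocyte markers were called lower in 6 of 8 (median log2 fold change −2.66, 581 to 1347 FPKM after CCl4, 4492 to 7159 FPKM after oil). Periportal markers were called lower in 3 of 10 (median −0.97, 1378 to 2657 FPKM after CCl4, 3197 to 3576 FPKM after oil). Markers of stellate cells and myofibroblasts were called higher in 8 of 9 (135 to 402 FPKM after CCl4, 15.8 to 17.7 FPKM after oil), of macrophages in 8 of 10 (516 to 1361 FPKM after CCl4, 186 to 285 FPKM after oil) and of neutrophils in 4 of 4 (63.8 to 136 FPKM after CCl4, 5.41 to 16.4 FPKM after oil). These counts are of tested markers, 4 of the 6 listed for neutrophils, 8 of 10 for pericentral hepatocytes and 9 of 10 for stellate cells. The summed levels cover all matched markers, tested or not. No marker of these lists was listed at 0 in all 6 libraries. In whole liver, fewer hepatocytes and less RNA per hepatocyte cannot be told apart, and the part of either in the values above was not tested.

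The livers labelled Sting knockout were set against wild-type livers, both after CCl4, to see what goes with that label. No difference was detectable for any of the 10 genes at this spread. All 10 overlapped between the groups, and limma called 0 of 11511 genes higher (0%) and 0 lower (0%), with 366 at an unadjusted p under 0.05 and a smallest adjusted p of 0.761; edgeR on the recovered reads also called 0. Log2 fold changes ran from −0.73 for Bhmt to 0.56 for Pemt, with a median of −0.02, against 0.02 over all genes.

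Gnmt was at 364, 1113 and 237 FPKM in the livers labelled Sting knockout, and the wild-type CCl4 values given above lie inside that range (log2 fold change 0.17, 95% interval −1.10 to 1.43, limma adjusted p = 0.921). Mat1a was at 235, 391 and 228 FPKM in the livers labelled Sting knockout (log2 fold change −0.52, 95% interval −1.64 to 0.61). Bhmt was at 108, 345 and 114 FPKM there (95% interval −2.16 to 0.70), Ahcy at 196, 382 and 139 FPKM (−0.97 to 1.09) and Cth at 63.9, 95.2 and 47.9 FPKM (−1.36 to 0.74). Replicate 2 was the highest library labelled Sting knockout for 9 of the 10 genes, and replicate 3 the lowest for 8. Pemt spread far more widely here than in wild type, at 148, 276 and 91.0 FPKM in the livers labelled Sting knockout, against 112, 105 and 98.0 FPKM in wild-type CCl4 livers. The 95% intervals of Gnmt, Mat1a, Bhmt, Ahcy and Cth are each wider than 2 log2 units. Hepatocyte markers summed to 53943 to 121431 FPKM in the livers labelled Sting knockout and 54031 to 63847 FPKM in wild-type CCl4 livers, highest in replicate 2. That library had the lowest Sting1 level of its group (1.98 FPKM), and the part of either in the values was not tested. Without replicate 3 of this group, whose Sting1 level of 5.28 FPKM lay inside the wild-type CCl4 range, 0 of the 10 genes were called either.

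Set against the oil livers, from which they differ in both treatment label and genotype label, the livers labelled Sting knockout had 4 of the 10 genes called lower and 0 higher, against 5.91% of 11511 genes called lower and 8.00% higher. This contrast uses the same oil libraries as the wild-type one. Bhmt averaged 189 ± 135 FPKM in the livers labelled Sting knockout and 972 ± 62.2 FPKM in oil livers (SD, n = 3 each, log2 fold change −2.58, limma adjusted p = 0.0246), and Gnmt averaged 572 ± 473 FPKM in the livers labelled Sting knockout and 1949.7 ± 364 FPKM in oil livers (−2.07, limma adjusted p = 0.0366). Cth and Ahcy had log2 fold changes of −1.93 and −1.82 (limma adjusted p = 0.0227 and 0.0271). Libraries did not overlap in deposited FPKM for 7 of the 10 genes, each lower, as in 19.8% of all genes. Mat1a was among these 7, at a log2 fold change of −1.61, and did not pass (limma adjusted p = 0.0607). Without replicate 1 or 3 of the livers labelled Sting knockout, or any 1 oil library, 0 of the 10 were called, and without replicate 2 of that group 5 were, with Shmt1 added (limma adjusted p = 0.00994). With replicate 2 left out, 783 of 11499 tested genes were called lower and 888 higher. In this contrast the hepatocyte list had 4 of 19 called lower, and stellate and myofibroblast markers 8 of 9 called higher.

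**Figure D2:**
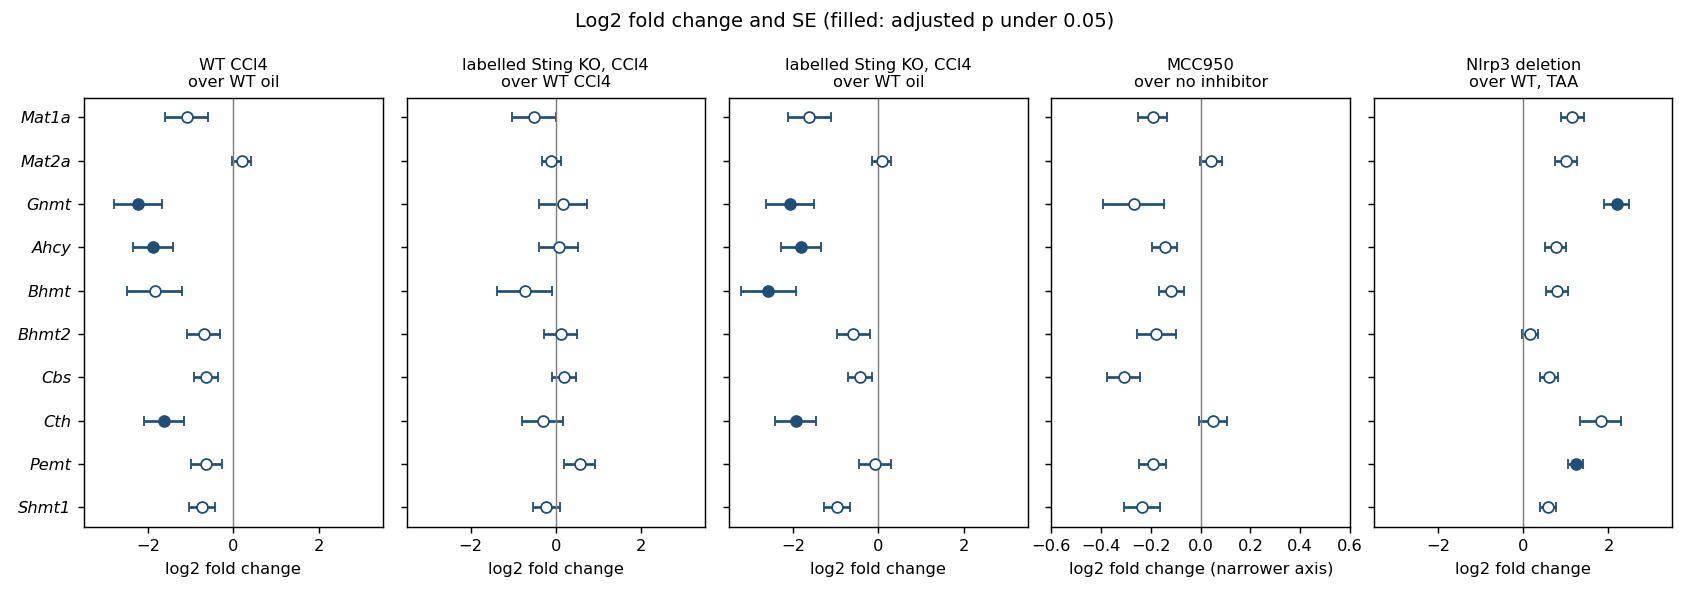
Log2 fold change with its SE for each gene in the 5 comparisons, filled where the adjusted p is under 0.05 (limma on log2(FPKM + 1) in the first 4 panels, edgeR on counts in the last); the MCC950 axis spans −0.6 to 0.6 and the others −3.5 to 3.5. Gnmt lies lowest in the first panel, at −2.24, and highest in the last, at 2.19.

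The ratio of Mat1a to Mat2a, per length and within a library, is free of the scaling of that library. It was 67.8, 15.9 and 11.2 in wild-type CCl4 livers, against 58.1, 52.2 and 59.8 in oil livers. Replicate 1 thus sat above the oil livers and the other 2 far below, and the log2 difference was −1.30 (exact two-sided permutation p = 0.4, where 3 against 3 cannot give less than 0.1). In the livers labelled Sting knockout the ratio was 17.6, 21.4 and 13.9, below every oil liver (log2 difference −1.71, exact permutation p = 0.1). Against the wild-type CCl4 livers the log2 difference was −0.40 (exact permutation p = 0.9), and without wild-type CCl4 replicate 1 it was 0.38 (exact permutation p = 0.4). Hepatocytes had ratios of 3.24, 3.02 and 3.12 with MCC950, against 3.84, 3.52 and 3.68 without, with no overlap (log2 difference −0.24, exact permutation p = 0.1). In the TAA livers the ratio was 85.5, 46.1 and 74.8 with the Nlrp3 deletion, against 54.2, 82.3 and 41.1 in wild type, overlapping ranges (log2 difference 0.23, exact permutation p = 0.6).

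**Figure D3:**
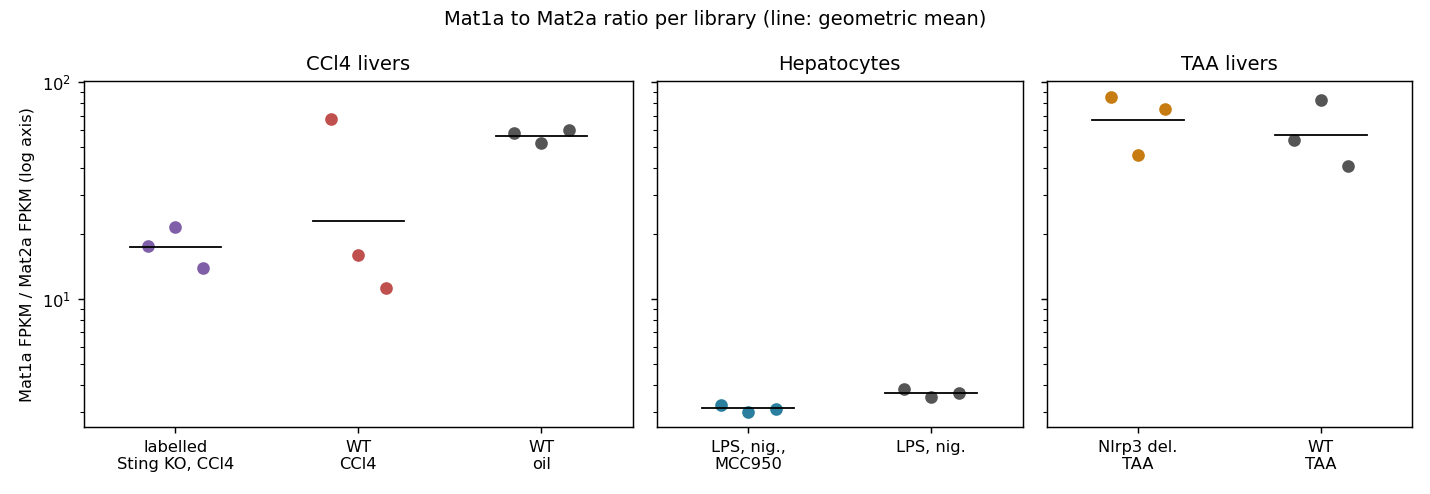
Mat1a FPKM over Mat2a FPKM per library on a log axis, with a line at the geometric mean of 3. Of the 9 CCl4-table livers, the 3 oil livers and replicate 1 of the wild-type CCl4 livers lie between 52.2 and 67.8 and the other 5 between 11.2 and 21.4; the 3 tables were normalized separately, which a within-library ratio is free of, but they also differ in what was sequenced.

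Primary hepatocytes stimulated with LPS and nigericin were compared with and without MCC950, to see the effect of NLRP3 inhibition, and none of the 10 genes passed the test. Mean levels were lower with MCC950 for 8 genes and higher for Mat2a and Cth, with log2 fold changes of −0.31 for Cbs to 0.05 for Cth and a median of −0.19, against −0.01 over all genes. Limma called 0 of 9835 genes higher (0%) and 0 lower (0%), with 1168 at an unadjusted p under 0.05 and a smallest adjusted p of 0.301, and edgeR on recovered reads called 0. Mat1a, Ahcy, Bhmt, Cbs, Pemt and Shmt1 had every MCC950 library below every library without it, as did 10.8% of all genes, and Mat2a had every MCC950 library above, as did 8.88%.

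Cbs was at 20.9, 24.3 and 22.5 FPKM with MCC950, against 27.6, 29.7 and 27.3 FPKM without (SE 0.07 on the log2 scale, 95% interval −0.47 to −0.15, limma adjusted p = 0.390). Mat1a was at 171, 159.6 and 165 FPKM with MCC950, against 201, 183 and 183 FPKM without (log2 fold change −0.19, limma adjusted p = 0.394). Pemt was at 43.6, 41.6 and 42.7 FPKM with MCC950, against 51.3, 48.8 and 46.7 FPKM without (log2 fold change −0.19, limma adjusted p = 0.390). These 3 genes kept their groups apart by small steps, as did Mat2a, at 52.7, 52.9 and 52.9 FPKM with MCC950, against 52.3, 52.0 and 49.7 FPKM without (95% interval −0.07 to 0.15). Gnmt was at 302, 367 and 318 FPKM with MCC950, against 339, 456 and 399 FPKM without, and these ranges overlapped (log2 fold change −0.27, limma adjusted p = 0.425). Ahcy, Bhmt, Bhmt2, Cth and Shmt1 averaged 265, 43.7, 8.52, 62.9 and 8.57 FPKM with MCC950, against 293, 47.5, 9.76, 60.8 and 10.2 FPKM without. Of 19 hepatocyte markers 0 were called (median log2 fold change −0.09, summed level 51225 to 54463 FPKM with MCC950 and 51518 to 57590.04 FPKM without). Markers of stellate cells summed to 0.857 to 1.14 FPKM with MCC950 and 1.08 to 2.76 FPKM without, and Acta2 and Col1a1 were listed at 0 in all 6 libraries. Macrophage markers were not near 0, at a summed 29.1 to 37.1 FPKM with MCC950 and 31.2 to 37.6 FPKM without. Cholangiocyte markers summed to 57.6 to 66.9 FPKM with MCC950 and 52.7 to 64.9 FPKM without.

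**Figure D4:**
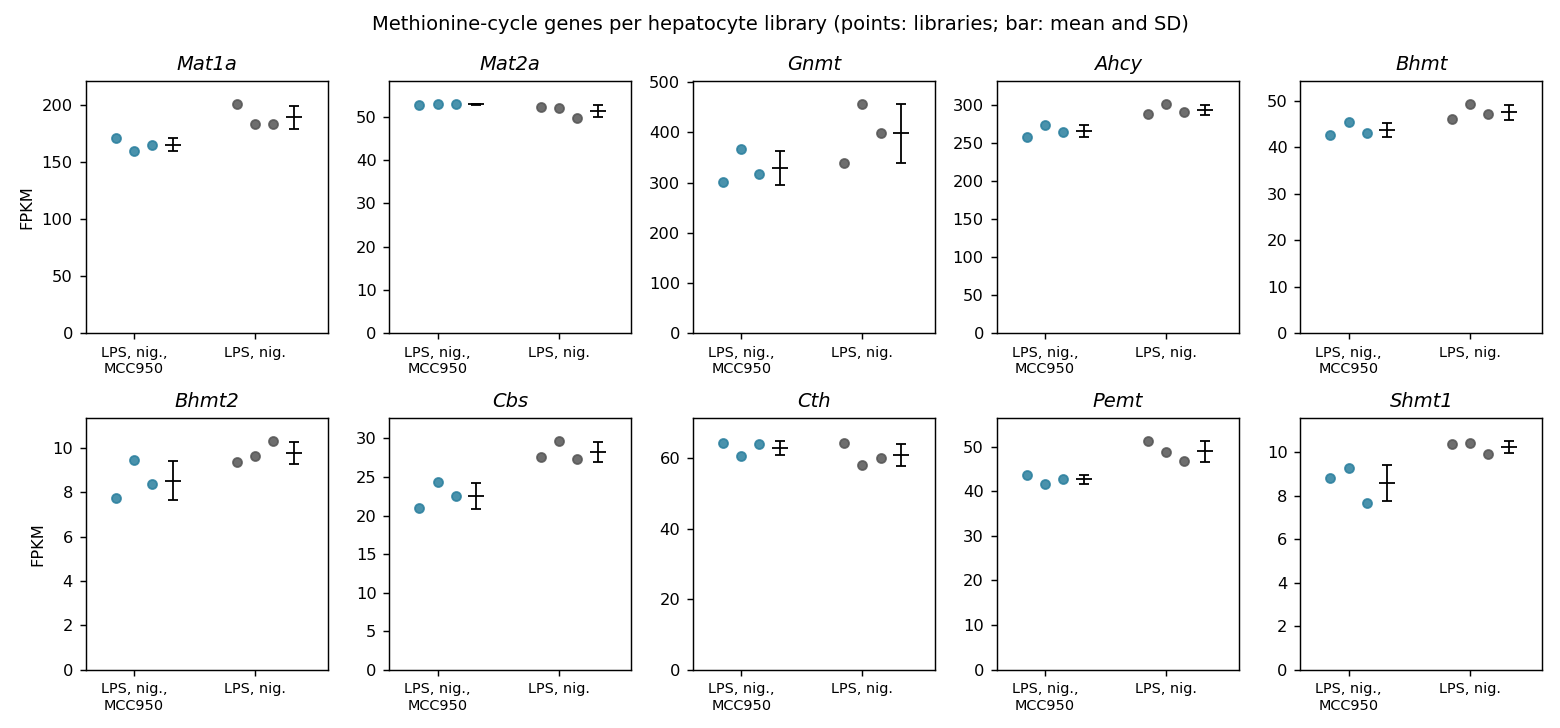
FPKM (linear axes from 0) of the 10 genes in each hepatocyte library, with points for libraries and a bar for the mean and SD of 3. Libraries with MCC950 lie slightly below those without for Mat1a, Ahcy, Bhmt, Cbs, Pemt and Shmt1 and slightly above for Mat2a, whose values span 49.7 to 52.9 FPKM.

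In livers given TAA, deletion of Nlrp3 in hepatocytes was set against wild type. All 10 genes had higher FPKM in every deletion library than in every wild-type library, as did 27.8% of 18619 tested genes. Of these tested genes 6.68% had lower FPKM in every deletion library. In the edgeR test on counts, Gnmt and Pemt were called higher and 0 were called lower, against 1.37% of tested genes called higher and 0.360% lower. Log2 fold changes ran from 0.15 for Bhmt2 to 2.19 for Gnmt, with a median of 0.90, against −0.04 over all genes. With limma on log2(FPKM + 1) both medians were higher, 1.17 for the 10 genes and 0.33 over all genes. Gaps between the groups in FPKM are therefore wider than these edgeR changes. The targeted gene was low in both groups, with Nlrp3 at 0.08 to 0.37 FPKM in deletion livers and 0.11 to 0.17 FPKM in wild-type livers. These ranges overlap, so the values do not verify the deletion, which is taken from the label.

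Gnmt was at 548, 1172 and 958 FPKM in the deletion livers, against 183, 99.5 and 175 FPKM in the wild-type TAA livers. The groups were far apart, with a log2 fold change of 2.19 (SE 0.30, edgeR adjusted p = 0.0487). Pemt was at 78.3, 95.3 and 86.7 FPKM in the deletion livers, against 31.9, 23.3 and 30.8 FPKM in wild type (log2 fold change 1.23, SE 0.17, edgeR adjusted p = 0.0487). Mat1a was at 685, 795 and 874 FPKM in the deletion livers, against 281, 297 and 222 FPKM in wild type, and just missed the threshold (log2 fold change 1.15, edgeR adjusted p = 0.0540). Mat2a also kept its groups apart, at 8.01, 17.2 and 11.7 FPKM in the deletion livers, against 5.18, 3.61 and 5.41 FPKM in wild type (log2 fold change 1.00, edgeR adjusted p = 0.0631). Cth was at 63.6, 132 and 201 FPKM in the deletion livers, against 28.8, 36.4 and 17.7 FPKM in wild type, the widest spread of the 10 in the deletion group at 3.17-fold (log2 fold change 1.81, SE 0.47, edgeR adjusted p = 0.0647).

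The remaining 5 genes had smaller fold changes. Ahcy averaged 462 ± 78.3 FPKM in the deletion livers and 208 ± 30.4 FPKM in wild type (SD, n = 3 each, edgeR adjusted p = 0.0945), and Bhmt averaged 523 ± 97.5 FPKM in the deletion livers and 232 ± 30.8 FPKM in wild type (edgeR adjusted p = 0.0961). The Bhmt copy Gm5096 averaged 135 ± 73.8 FPKM in the deletion livers and 13.6 ± 1.83 FPKM in wild type (SD, n = 3 each), a log2 fold change of 2.90 (edgeR adjusted p = 0.0487), against 0.79 for Bhmt. It stood at 9.67 to 37.7% of Bhmt in deletion livers and at 5.35 to 6.57% in wild-type TAA livers. The Ahcy copy Gm4737 stood at 32.2 to 49.1% of Ahcy in deletion livers and 49.1 to 57.4% in wild type. Cbs, Shmt1 and Bhmt2 averaged 20.4 ± 0.662, 38.0 ± 3.75 and 73.0 ± 5.41 FPKM in the deletion livers, against 10.2 ± 1.47, 19.9 ± 5.13 and 51.5 ± 11.7 FPKM in wild type (SD, n = 3 each), with log2 fold changes of 0.61, 0.58 and 0.15.

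**Figure D5:**
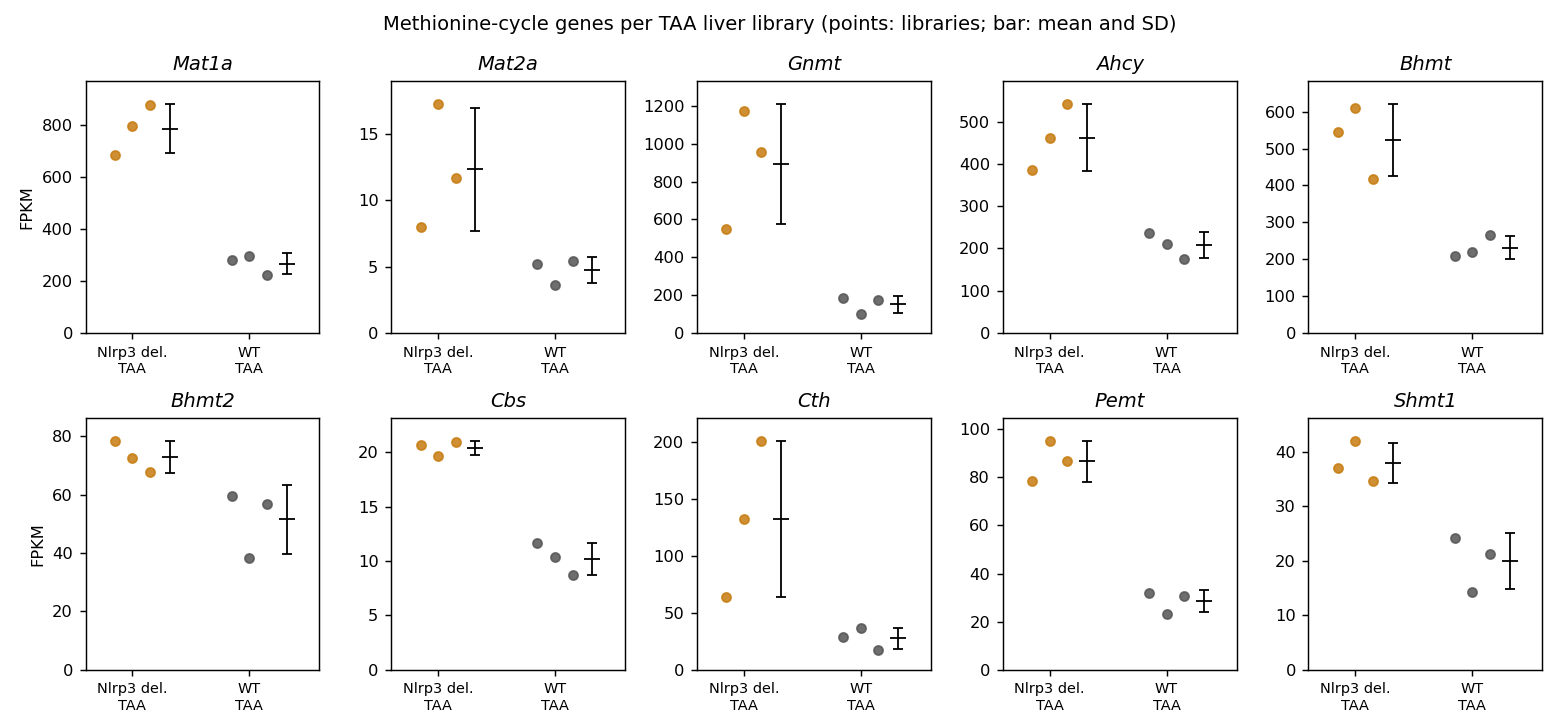
FPKM (linear axes from 0) of the 10 genes in each TAA liver, with points for libraries and a bar for the mean and SD of 3. All 3 deletion livers lie above all 3 wild-type livers in every panel, by the widest relative step for Gnmt and by the narrowest for Bhmt2, at 67.7 to 78.5 FPKM in deletion livers and 38.1 to 59.7 FPKM in wild type.

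The composition of the TAA libraries differed between these groups, and its part in the values was not tested. Mitochondrially encoded genes held 5.63 to 12.5% of counts in the deletion livers and 27.8 to 34.7% in wild type. Pseudogenes held 2.86 to 5.54% in the deletion livers and 9.31 to 10.5% in wild type, and rRNA genes 0.313 to 0.464% in the deletion livers and 1.83 to 10.3% in wild type. Albumin held 4.37 to 6.61% in the deletion livers and 1.42 to 1.62% in wild type. Hepatocyte markers were called higher in 4 of 19 and lower in 0 (median log2 fold change 1.00, summed level 33594 to 42444 FPKM in the deletion livers and 12491 to 14280.1 FPKM in wild type). Of 10 stellate cell and myofibroblast markers 0 were called (25.5 to 59.99 FPKM in the deletion livers and 19.0 to 31.7 FPKM in wild type), and of 10 macrophage markers 0 (109 to 229 FPKM in the deletion livers and 83.3 to 116 FPKM in wild type). Of 7 endothelial markers 0 were called as well, with a median log2 fold change of 0.98 and summed levels that did not overlap (24.8 to 61.8 FPKM in the deletion livers and 16.8 to 18.4 FPKM in wild type). Without mitochondrially encoded, rRNA and pseudogene counts Gnmt, Pemt and Mat1a were called (edgeR adjusted p = 0.0435, 0.0435 and 0.0491). In that setting 561 of 17267 tested genes were called higher and 138 lower. The calls of Gnmt and Pemt ended without deletion replicate 2 or 3 or without any 1 wild-type library (edgeR adjusted p = 0.0965 to 0.196 for Gnmt). They also ended with RLE factors (0.0506 for both), where 1 gene was called in all. Without deletion replicate 1, 8 of the 10 genes were called, where 3570 of 19889 tested genes were called higher and 3985 lower. DESeq2 also called 8 of the 10, where 2035 of 33412 tested genes were called higher and 1738 lower.

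Other genes of the pathway were taken from 6 lists of 70 genes in all, also chosen with earlier results of these data known. Their shares beside all genes are likewise only a description. In wild-type CCl4 livers against oil, 11 of 65 tested genes were called lower and 5 higher, where 6.15% of all tested genes were called lower and 9.19% higher. Their median log2 fold change was −0.47, against −0.08 over all genes. Of 12 other genes of the methionine cycle and of S-adenosylhomocysteine clearance, a list that also holds betaine and sarcosine oxidation, 4 were called lower and 0 higher. Dmgdh, which oxidizes the dimethylglycine that Bhmt forms, averaged 61.5 ± 23.4 FPKM after CCl4 and 199 ± 12.3 FPKM after oil (SD, n = 3 each, limma adjusted p = 0.00512). Sardh, which oxidizes the sarcosine that Gnmt forms, averaged 89.4 ± 46.7 FPKM after CCl4 and 237 ± 21.6 FPKM after oil (limma adjusted p = 0.0280), and Aldh7a1, which oxidizes betaine aldehyde among other substrates, 57.2 ± 18.1 FPKM after CCl4 and 126 ± 12.9 FPKM after oil (0.0382). Of 10 tested genes of cysteine, taurine, sulfide and glutathione 4 were called lower, among them Csad of taurine synthesis (log2 fold change −1.91, limma adjusted p = 0.0444), Suox, sulfite oxidase (−1.69, 0.00354), and Mpst (−1.31, 0.0326). Among other methyltransferase genes Inmt, which methylates indole amines, was called lower (log2 fold change −1.86, limma adjusted p = 0.0428).

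Calls among the folate genes came near the shares over all genes, 9.19% higher and 6.15% lower. Of 20 tested folate genes 2 were called higher, the mitochondrial enzyme gene Mthfd2 (2.28 ± 0.622 FPKM after CCl4 and 0.488 ± 0.0575 FPKM after oil, SD, n = 3 each, limma adjusted p = 0.00413) and Tyms, thymidylate synthase (3.83 ± 1.56 FPKM after CCl4 and 1.32 ± 0.232 FPKM after oil, 0.0233). The 1 folate gene called lower was Mthfd1 (38.0 ± 9.12 FPKM after CCl4 and 71.1 ± 5.84 FPKM after oil, 0.0455). Of 3 genes of serine synthesis 2 were called higher and 0 lower, Psat1 (3.28 ± 0.985 FPKM after CCl4 and 0.275 ± 0.0496 FPKM after oil, 0.000678) and Phgdh (2.13 ± 1.58 FPKM after CCl4 and 0.0953 ± 0.0832 FPKM after oil, 0.0224). Of 12 genes of methionine salvage and polyamines Sat1, which acetylates polyamines, was called higher (log2 fold change 1.06, limma adjusted p = 0.0195). All 8 proliferation markers were called higher in the same contrast, at a summed 52.4 to 99.3 FPKM after CCl4 and 1.42 to 2.54 FPKM after oil. Mthfd2, Psat1, Phgdh and, by that sum, most proliferation markers averaged under 1 FPKM in oil livers. They passed the filter at a mean of 1 FPKM only through the CCl4 groups. A gene this low in oil could enter the test only if higher after CCl4, so the lack of lower calls among them says nothing.

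In the livers labelled Sting knockout against oil, 6 of 65 were called lower (Dmgdh, Sardh, Pipox, Mthfd1, Amt and Suox) and 7 higher (Mthfd2, Tyms, Srm, Sat1, Psat1, Phgdh and Psph), where 5.91% of all tested genes were called lower and 8.00% higher. Mthfd2, Psat1 and Phgdh again passed the filter only through the CCl4 groups. Against wild-type CCl4 livers, and with MCC950 against no inhibitor, 0 of 65 were called in each. In the TAA livers 3 of 69 were called higher in the deletion group and 0 lower. These were Sardh (90.3 ± 20.5 FPKM in deletion livers and 26.3 ± 1.46 FPKM in wild type, SD, n = 3 each, edgeR adjusted p = 0.0487), Inmt (149 ± 51.0 FPKM in deletion livers and 28.7 ± 5.46 FPKM in wild type, 0.0487) and Suox (22.8 ± 13.3 FPKM in deletion livers and 2.45 ± 0.225 FPKM in wild type, 0.0487). The median of the 69 was 0.56, against −0.04 over all genes.

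The 10 genes spanned a wide range of levels within each table. In oil livers Gnmt stood above all others at 1949.7 ± 364 FPKM, followed by Bhmt, Mat1a and Ahcy, whose neighbours in that order overlapped. Cth came next at 260.4 ± 57.6 FPKM, apart from its neighbours, and then Cbs and Pemt, which overlapped, Bhmt2, Shmt1 and, lowest, Mat2a at 15.0 ± 1.07 FPKM. In hepatocytes without MCC950 Gnmt, Ahcy, Mat1a and Cth led in that order without overlap, Mat2a at 51.3 ± 1.42 FPKM overlapped Pemt, and Bhmt2 and Shmt1 were lowest. In deletion livers given TAA, Gnmt and Mat1a led with overlapping values and Mat2a was again lowest, at 12.3 ± 4.64 FPKM. In wild-type livers given TAA, Mat1a, Bhmt, Ahcy and Gnmt followed in that order, each overlapping the next.

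Over the 9 libraries of the CCl4 table, and among the 5888 genes that averaged 5 FPKM or more, the genes most like Gnmt by Pearson's r of log2(FPKM + 1) were Hpd of tyrosine breakdown (0.993), Ahcy (0.986) and Ivd of leucine breakdown (0.985). Those most like Mat1a were Urad (0.959), Cth (0.956) and Got1 (0.946). Those most like Mat2a were other genes altogether, Rbm39 (0.929), Clk1 (0.923), which encodes a kinase of splicing factors, and Commd8 (0.907). These values share libraries, scaling and the difference between oil and CCl4, and they describe the 9 libraries only.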

How the data were processed

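The 21 libraries are mouse RNA sequencing libraries. The submitters' processing notes name HISAT2 2.2.1, featureCounts 1.5.0-p3 and mm10; strand and library scaling are not given in the sources used here. The authors deposited raw counts and FPKM for TAA livers, per the file headers, and FPKM with gene lengths for the other 2 tables. There, FPKM times length gave whole reads for 100% of values above 0 (within 0.05).

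For FPKM, limma 3.58.1 (trend = TRUE) was run on log2(FPKM + 1) of genes averaging 1 FPKM or more, with the 3 CCl4-table groups in 1 fit; this scale understates changes of low genes. Deposited counts were tested with edgeR 4.0.16 (quasi-likelihood, TMM, filterByExpr). All tests are two-sided, and p-values were adjusted by Benjamini-Hochberg over the genes tested (R 4.3.3; DESeq2 1.42.0 as an alternative). The fitting steps were tested on simulated data that held only the groups compared, with FPKM scaled to each library's own total. They therefore did not test the scaling of the deposited CCl4-table FPKM or the fit of 3 groups. Tests stayed within a table.

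The members and lists were chosen with earlier results of these data known. All 10 members are named in every comparison; of other lists at most the 3 called genes with the largest change are given values, and further called genes are named or counted (1 is not reported here); for Mat1a, Gnmt and Mat2a the 3 most alike genes are named. Replicate numbers come from the sample titles, and no label gives a shared litter or day. Deviations from the group mean were correlated between libraries of the same number. All 3 correlations were above 0.1 for CCl4 against oil (0.23, 0.32 and 0.52) and for Sting against wild type (0.19, 0.18 and 0.12). Correlations between unlike numbers were not computed, so these values do not show that the numbers pair libraries. Near copies are transcripts at least 95% identical over at least 100 bases. Alternatives covered the pseudocount (0.1), filters, scaling, tools, the replicate block and each library left out.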

Additional observations from a re-analysis of the deposited data

How the results depend on the processing

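Alternatives moved counts of calls more than directions. In wild-type CCl4 livers against oil, 1766 genes were called over all genes, 2790 with edgeR on recovered reads and 877 among genes averaging 5 FPKM or more; the 3 of the 10 genes called lower became 0 without a filter, 1 with quantile normalization (Ahcy), and 0 to 5 with single libraries left out (936 to 1427 over all genes). In the livers labelled Sting knockout against oil, 1601 genes were called, 2436 with edgeR on recovered reads and 829 among genes averaging 5 FPKM or more, and the 4 called lower became 0 without a filter and 0 to 5 with libraries left out (781 to 1671 over all genes). Rescaling to the same recovered reads, chosen after seeing the data, gave 1312 higher and 294 lower there, against 921 and 680, and rescaling to the same sum of FPKM 1231 and 237; for wild-type CCl4 livers the sum gave 1930 and 197, and edgeR on recovered reads 1969 and 821. Without a filter 2 genes were called in each of the Sting and MCC950 comparisons, and 0 to 1 with libraries left out.

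Directions that turned were all of differences that had not passed. Livers labelled Sting knockout against wild type gave, for Ahcy, Bhmt2, Cbs and Gnmt, −0.25, −0.21, −0.10 and −0.15 with quantile normalization and −0.24, −0.18, −0.10 and −0.13 with the same sum of FPKM. With the same recovered reads Ahcy, Bhmt2 and Gnmt gave −0.10, −0.052 and −0.000198. With single libraries left out, Ahcy ranged over −0.34 to 0.53, Bhmt2 −0.31 to 0.44, Gnmt −0.47 to 0.64, Mat1a −0.90 to 0.14, Mat2a −0.23 to 0.015, Cth −0.71 to 0.26 and Shmt1 −0.54 to 0.055, and the Mat1a to Mat2a difference −0.92 to 0.38. Against oil, Pemt gave 0.071 with edgeR on recovered reads, 0.14 with quantile normalization, 0.24 and 0.22 with the 2 rescalings and −0.49 to 0.30 with libraries left out, and Mat2a −0.012 to 0.20. Under TAA the Mat1a to Mat2a difference ran from −0.0042 to 0.50 with libraries left out.

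Under TAA, 322 genes and 2 of the 10 were called. These became 3773 and 8 with DESeq2, 1 and 0 with RLE factors, 2642 and 9 with limma on log2(FPKM + 1), 1593 and 5 without a filter, 699 genes without mitochondrially encoded, rRNA and pseudogene counts, and 0 to 7555 genes and 0 to 8 of the 10 with libraries left out; all 10 kept a positive log2 fold change throughout. The replicate block gave 2 genes and 0 of the 10 there. In the livers labelled Sting knockout against oil the replicate block gave 1109 higher and 956 lower and added Shmt1 (limma adjusted p = 0.0410). Correlations of same-numbered libraries were not all above 0.1 there (0.022, 0.18 and 0.093), nor for MCC950 (0.18, 0.22 and 0.085). Beside Cth in wild-type CCl4 livers, the replicate block changed no other call of the 10 genes for CCl4 against oil or for Sting against wild type. The causes were not tested.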

Other observations

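The spread within groups differed between the tables. The highest over the lowest library was 1.20-fold in the median over the 10 genes in oil livers, 2.32-fold in wild-type CCl4 livers and 2.55-fold in the Sting knockout-labelled livers. In cultured cells it was 1.07-fold with MCC950 and 1.09-fold without, and 1.34-fold in deletion livers and 1.43-fold in wild-type livers given TAA. Summed over the 10 genes, the wild-type CCl4 livers stood at 3342, 1257 and 1322 FPKM and the livers labelled Sting knockout at 1369, 2948 and 1039 FPKM, against 5122, 5592 and 5286 FPKM in oil livers.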
